A study of Sus scrofa with 3 samples.

Results

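The integrins and the adaptor proteins that tie them to the actin cytoskeleton were examined in 3 pig cell populations, with 1 library each: mesenchymal stem cells derived from bone marrow (BM-MSC), bone marrow cells labelled as attached (BMAC) and peripheral blood mononuclear cells (PBMC). The genes were taken by symbol. They were the 18 integrin alpha subunit genes, the 8 integrin beta subunit genes and 14 adaptor genes, namely TLN1, TLN2, FERMT1, FERMT2, FERMT3, VCL, PXN, ZYX, ILK, PARVA, PARVB, PARVG, PTK2 and PTK2B. All 40 had a row of their own among the 26466 gene symbols of the count tables, and all 40 had at least 1 count in every library. The labels give the cell type of each library and no treatment. They name no breed, age, sex, animal, culture medium or passage, and the effects of cell type, animal and culture cannot be told apart in these libraries.

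Integrins are receptors made of an alpha and a beta chain, which bind matrix proteins or receptors on other cells. Talins and kindlins bind the tail of the beta chain inside the cell and switch the receptor to its active state. ILK with the parvins, vinculin, paxillin, zyxin and the focal adhesion kinase then link it to actin and to signalling. In stromal cells this machinery anchors the cell to its matrix, while in blood cells it serves arrest on vessel walls, homing to tissue and contact between immune cells. The roles of genes given below are those known from human and mouse.

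Libraries held 17069344 counts in BM-MSC, 15122997 in BMAC and 15445903 in PBMC. Levels are given as counts per 1000000 counts of the library (CPM). They are counts near the 3' end of transcripts, were not scaled by length, and are set side by side between libraries, not between genes. With 1 library per population no difference has a replicate check and no p-value is given. Intervals in parentheses are 95% exact conditional (Clopper-Pearson) intervals of a fold and cover counting error only. A gene was counted as different when the log2 ratio of (CPM + 1) was at least 2 in size, which is 4-fold, and the library with the higher level had 10 CPM and 10 counts or more. In these bulk samples fewer cells of a type and less RNA per cell cannot be told apart. The labels were checked against markers. All 9 stromal markers reached 10 CPM in both BM-MSC and BMAC, with sums of 13315 and 11895 CPM, against 5.37 CPM in PBMC. The 7 leukocyte markers summed to 2.64 in BM-MSC and to 2.84 in BMAC, against 4998 CPM in PBMC. CD3D was at 0 in both marrow libraries, and MS4A1 and CORO1A were at 0 in BMAC. The 8 endothelial markers summed to 19.0 CPM in BM-MSC and 33.2 in BMAC, against 169 CPM in PBMC. PECAM1 made up most of each of these sums, at 15.2 in BM-MSC and 27.7 in BMAC against 145 CPM in PBMC. VWF, TEK and TIE1 were also higher in PBMC, while CDH5, KDR, EMCN and CLDN5 were under 1 CPM in every library. The 3 erythroid markers with a row summed to 1.17 in BM-MSC and 1.12 in BMAC, against 5.83 CPM in PBMC. Rows of ribosomal RNA held 17.6% of the counts in BM-MSC and 13.2% in BMAC, against 7.43% in PBMC, and totals without them are among the alternatives.

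The BM-MSC and PBMC libraries differed in their integrins and in which paralog of the kindlins and parvins prevailed. BM-MSC had far more ITGA8, FERMT2 and PARVA than PBMC, and far less ITGA4, ITGB7, PARVG and the chains that pair with ITGB2. Of the 36 genes at or above 10 CPM in BM-MSC or PBMC, 10 passed the 4-fold rule towards BM-MSC and 14 towards PBMC, or 66.7% in either direction. Over all 11428 genes above that floor the share was 30.0%, with 14.3% towards BM-MSC and 15.7% towards PBMC. The floor was reached through BM-MSC alone by 8 of the 36 and through PBMC alone by 14, which favours a call, so that these shares describe the genes and are no test. The median log2 ratio was 0.20 for the 36 genes and -0.16 for all genes. With TMM and median-of-ratios scaling factors the median of all genes was 0.23 and 0.26, and 58.5% and 59.5% of all genes past the rule were on the side of BM-MSC, against 47.6% without such factors. The same factors shift the integrin and adaptor genes, so their 0.20 is not to be set against these medians. Over all 9 alternatives their median ranged from 0.20 to 0.99.

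BMAC also differed from PBMC most in ITGA4 and ITGB7, both lower in BMAC, and in FERMT2 and PARVA, both higher. Both marrow libraries were set against the same PBMC library, so these comparisons are not independent. Of the 36 genes at or above 10 CPM in BMAC or PBMC, 8 passed the rule towards BMAC and 12 towards PBMC, or 55.6%, against 26.8% of all 11371 genes above the floor (14.0% higher in BMAC and 12.8% higher in PBMC). The floor was reached through BMAC alone by 8 genes and through PBMC alone by 12. The median log2 ratio was 0.21 for the 36 genes and -0.12 for all genes, and the median of all genes was 0.21 and 0.22 with TMM and median-of-ratios factors. With them, 60.0% and 60.3% of all genes past the rule lay on the BMAC side, against 52.3% without them. The integrin and adaptor genes shift with these factors as well, and their median ranged from 0.02 to 0.83 over all 9 alternatives.

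Among the alpha chains that bind the RGD motif of fibronectin and related ligands, ITGA8 stood apart. ITGA8, which pairs with ITGB1 and binds nephronectin, was at 609 CPM in BM-MSC (10403 counts) and 223 CPM in BMAC (3368 counts), against 2.46 CPM in PBMC (38 counts). It was 248-fold higher in BM-MSC (180 to 350) and 90.5-fold higher in BMAC (65.8 to 128) than in PBMC. ITGAV, which pairs with several beta chains to bind vitronectin and latent TGF-beta, was at 156 CPM in BM-MSC (2660 counts) and 99.0 CPM in BMAC (1497 counts), against 27.3 CPM in PBMC (421 counts). It was 5.72-fold higher in BM-MSC (5.16 to 6.35). In BMAC it was 3.63-fold higher (3.26 to 4.06), which is under the 4-fold rule but past it with TMM or median-of-ratios factors. ITGA5, the chain of the classical fibronectin receptor, was at 86.8 in BM-MSC and 56.3 in BMAC against 33.7 CPM in PBMC, so it was higher in both marrow libraries by less than 4-fold. ITGA2B, the platelet fibrinogen receptor chain, went the other way, with 1.82 CPM in BM-MSC (31 counts) and 0.595 CPM in BMAC (9 counts) against 14.8 CPM in PBMC (228 counts). It was 8.13-fold lower in BM-MSC (5.57 to 12.2) and 24.8-fold lower in BMAC (12.8 to 54.9), and under 4-fold with a pseudocount of 5 CPM. Platelet markers other than those overlapping another row, GP1BA, GP6, PPBP and SELP, summed to 2.05 in BM-MSC and 3.04 in BMAC against 7.57 CPM in PBMC. PPBP was at 0 in BM-MSC. In BMAC it was at 2.51 CPM (38 counts), most of the BMAC sum, against 1.81 CPM in PBMC (28 counts). GP1BA, at 0 in BMAC, GP6 and SELP were lower in BMAC than in PBMC. Over all 7 platelet markers with a row the sums were 49.0 in BM-MSC and 40.7 in BMAC against 35.0 CPM in PBMC. The part of platelets in the ITGA2B value was not tested.

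**Figure D1:**
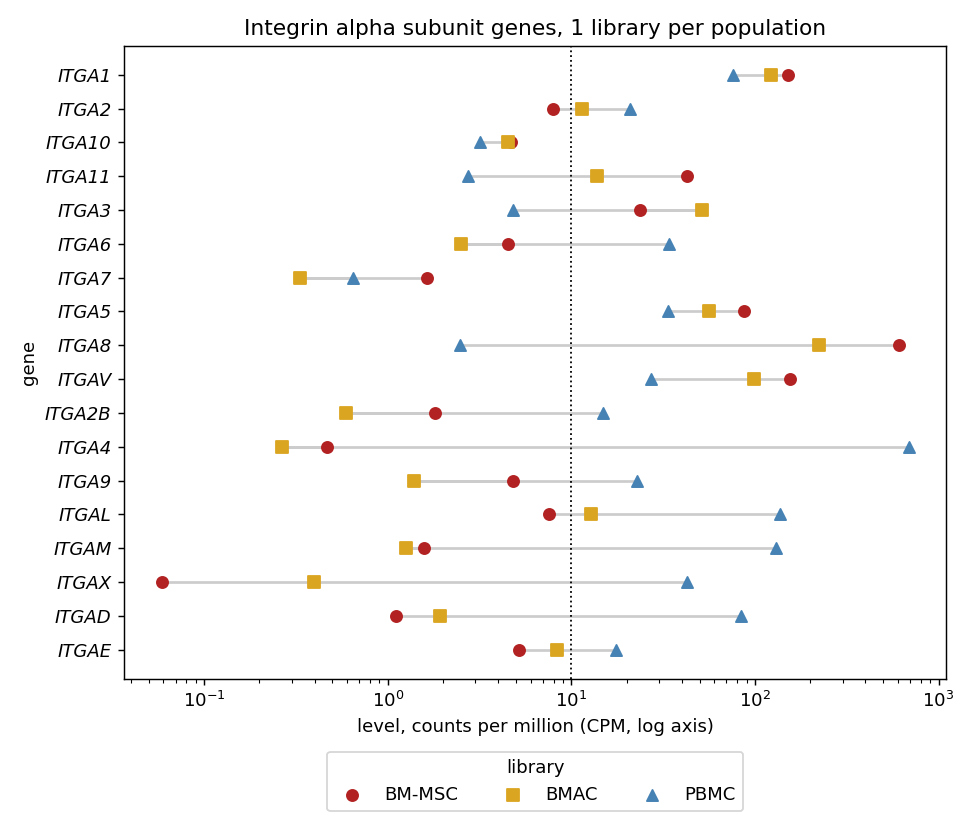
Level of each integrin alpha subunit gene in CPM on a log axis, with a circle for BM-MSC, a square for BMAC and a triangle for PBMC, each 1 library. The dotted line marks 10 CPM. ITGA8 lies at 609 and 223 CPM in the marrow libraries against 2.46 CPM in PBMC, and ITGA4 lies at 0.469 and 0.264 CPM against 687 CPM.

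The collagen receptors were present on both sides, with ITGA11 as the member that separated them. ITGA11, a receptor for fibrillar collagen on fibroblasts, was at 42.4 CPM in BM-MSC (724 counts) and 13.8 CPM in BMAC (208 counts) against 2.72 CPM in PBMC (42 counts). It was 15.6-fold higher in BM-MSC (11.4 to 21.8). In BMAC it was 5.06-fold higher (3.62 to 7.23), but its log2 ratio of 1.99 after the pseudocount lay just under the rule, and it passed with a pseudocount of 0.5 CPM, with TMM or median-of-ratios factors, and without rRNA rows in the total. ITGA1, found on mesenchymal cells and on activated T cells, was at 151 in BM-MSC and 123 in BMAC against 75.5 CPM in PBMC, higher in both marrow libraries by less than 4-fold. Its row held 2585 counts in BM-MSC, 1867 in BMAC and 1166 in PBMC. The overlapping row PELO held 508, 595 and 221 in the same libraries, and LOC106506482 held 109, 200 and 182. These are 23.6% and 8.74% of the ITGA1 count summed over libraries, so its level is less certain. ITGA2 stood at 7.97 in BM-MSC and 11.5 in BMAC against 21.0 CPM in PBMC. Its row overlaps MOCS2, which held 546 counts in BM-MSC and 673 in BMAC against 456 in PBMC, while ITGA2 held 136, 174 and 324 in the same libraries, and with the strand setting unknown the ITGA2 value is uncertain. ITGA10 stayed below 10 CPM throughout, at 4.69 in BM-MSC, 4.50 in BMAC and 3.17 CPM in PBMC.

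The laminin receptor chains ITGA3 and ITGA6 were divided between marrow and blood. ITGA3 was at 23.8 CPM in BM-MSC (407 counts) and 51.8 CPM in BMAC (783 counts) against 4.79 CPM in PBMC (74 counts), or 4.98-fold higher in BM-MSC (3.88 to 6.47) and 10.8-fold higher in BMAC (8.51 to 13.9). With a pseudocount of 5 CPM the BM-MSC value was under the rule. ITGA6 was at 4.51 CPM in BM-MSC (77 counts) and 2.51 CPM in BMAC (38 counts) against 34.1 CPM in PBMC (526 counts), or 7.55-fold lower in BM-MSC (5.93 to 9.72) and 13.6-fold lower in BMAC (9.74 to 19.4). Its laminin-specific partner ITGB4 was low throughout, at 1.35 in BM-MSC, 0.463 in BMAC and 1.55 CPM in PBMC, and its direction in BM-MSC against PBMC turned with TMM or median-of-ratios factors. ITGA7, the main laminin receptor chain of muscle, had 28 counts in BM-MSC, 5 in BMAC and 10 in PBMC.

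The widest gap towards blood was that of ITGA4, the chain that pairs with ITGB1 to bind VCAM1 and fibronectin and with ITGB7 to home to the gut. ITGA4 had 8 counts in BM-MSC (0.469 CPM) and 4 in BMAC (0.264 CPM), against 10614 in PBMC (687 CPM). It was 1466-fold lower in BM-MSC (744 to 3397) and 2598-fold lower in BMAC (1014 to 9537). Its partner ITGB7 showed the same order of libraries, with 20 counts in BM-MSC (1.17 CPM) and 11 in BMAC (0.727 CPM) against 4670 in PBMC (302 CPM), 258-fold lower in BM-MSC (167 to 423) and 416-fold lower in BMAC (232 to 833). ITGA9, which is related to ITGA4 and binds tenascin-C and VCAM1, was at 4.80 CPM in BM-MSC (82 counts) and 1.39 CPM in BMAC (21 counts) against 22.9 CPM in PBMC (353 counts). It was 4.76-fold lower in BM-MSC (3.73 to 6.13), a value under the rule with TMM factors, median-of-ratios factors, rRNA rows left out of the total or a pseudocount of 5 CPM, and 16.5-fold lower in BMAC (10.6 to 26.9). ITGAE, which joins ITGB7 to bind E-cadherin, differed less, at 5.21 in BM-MSC and 8.33 in BMAC against 17.5 CPM in PBMC.

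The leukocyte integrins built on ITGB2 were low in marrow cells, though not equally. ITGB2 itself was at 5.80 CPM in BM-MSC (99 counts) and 9.32 CPM in BMAC (141 counts) against 142 CPM in PBMC (2200 counts), or 24.6-fold (20.1 to 30.3) and 15.3-fold lower (12.9 to 18.2). ITGAL, the alpha chain of LFA-1 on lymphocytes, was at 7.56 CPM in BM-MSC (129 counts) and 12.8 CPM in BMAC (193 counts) against 137 CPM in PBMC (2120 counts). It was 18.2-fold lower in BM-MSC (15.2 to 21.9) and 10.8-fold lower in BMAC (9.28 to 12.5). The myeloid chains were lower still. ITGAX, the CD11c chain of dendritic cells, had 1 count in BM-MSC (0.0586 CPM) and 6 in BMAC (0.397 CPM) against 661 in PBMC (42.8 CPM), or 730-fold (131 to 28895) and 108-fold lower (49.3 to 295). ITGAD, another partner of ITGB2, had 19 counts in BM-MSC (1.11 CPM) and 29 in BMAC (1.92 CPM) against 1298 in PBMC (84.0 CPM), or 75.5-fold (48.1 to 126) and 43.8-fold lower (30.4 to 65.7). ITGAM, the CD11b chain of monocytes and granulocytes, had 27 counts in BM-MSC (1.58 CPM) and 19 in BMAC (1.26 CPM) against 2006 in PBMC (130 CPM), or 82.1-fold (56.3 to 125) and 103-fold lower (66.0 to 172). The overlapping row LOC110259903 held 27 counts in BM-MSC and 19 in BMAC against 2340 in PBMC, the same whole numbers in both marrow libraries, so the ITGAM value may count the same reads and is uncertain. ITGAM, ITGAX and ITGAD are close paralogs, and how reads shared among them were counted is not given in the sources used.

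These residual levels were compared with those of the leukocyte markers. The summed leukocyte markers stood at 0.0527% of the PBMC level in BM-MSC and 0.0569% in BMAC. ITGB2 stood at 4.07% in BM-MSC and 6.55% in BMAC, and ITGAL at 5.51% and 9.30%. Both thus retained far more of the PBMC level than the leukocyte marker list did. The cell source of these counts was not tested. ITGAX retained 0.137% in BM-MSC and 0.927% in BMAC, ITGAD 1.32% and 2.28%, and ITGAE 29.7% and 47.5%. ITGA4 was near the markers, at 0.0682% in BM-MSC and 0.0385% in BMAC, and ITGB7 retained 0.388% and 0.241%. The monocyte markers stood at 1.76% in BM-MSC and 4.34% in BMAC, with CD14, most of the BMAC sum, at 3.63 in BM-MSC and 17.3 in BMAC against 12.9 CPM in PBMC, while LYZ and FCER1G were at 0 in BMAC and CSF1R was at 0 in BM-MSC. The 4 neutrophil markers stood at 0.264% in BM-MSC and 1.19% in BMAC, with S100A8 and S100A9 at 0 in both. S100A9 was low in PBMC too, at 1.17 CPM. CSF3R, at 27.1 of the 44.4 CPM summed in PBMC, overlaps LOC102167570 and is uncertain. Without CSF3R the other 3 summed to 0.0586 in BM-MSC and 0.132 in BMAC against 17.3 CPM in PBMC.

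Of the beta chains, ITGB1, ITGB3 and ITGB8 were higher in the marrow libraries. ITGB1, the shared beta chain of most matrix receptors, was at 1029 CPM in BM-MSC (17572 counts) and 708 CPM in BMAC (10709 counts) against 245 CPM in PBMC (3789 counts). It was 4.20-fold higher in BM-MSC (4.05 to 4.35), just past the rule at a log2 ratio of 2.06, and 2.89-fold higher in BMAC, under it. ITGB8, whose pair with ITGAV activates latent TGF-beta, was at 80.0 CPM in BM-MSC (1366 counts) and 64.1 CPM in BMAC (970 counts) against 3.37 CPM in PBMC (52 counts), or 23.8-fold (18.0 to 32.0) and 19.1-fold higher (14.4 to 25.7). ITGB3, the chain of vitronectin and platelet fibrinogen receptors, was at 22.7 CPM in BM-MSC (387 counts) and 28.2 CPM in BMAC (427 counts) against 3.50 CPM in PBMC (54 counts). It was 6.49-fold higher in BM-MSC (4.87 to 8.79) and 8.08-fold higher in BMAC (6.07 to 10.9), and under the rule in both with a pseudocount of 5 CPM. Because ITGB3 also marks osteoclasts, their markers were read beside it. CTSK was at 911 in BM-MSC and 222 in BMAC against 14.6 CPM in PBMC, and the 6 markers together summed to 911 in BM-MSC and 222 in BMAC against 31.7 CPM in PBMC, so CTSK made up nearly all of the marrow sums. The other markers, ACP5, DCSTAMP, OCSTAMP, CALCR and MMP9, were each under 1 CPM in both marrow libraries, with DCSTAMP and MMP9 at 0. The part of osteoclasts in the ITGB3 value was not tested. ITGB5, the other vitronectin receptor chain, was at 83.4 in BM-MSC and 165 in BMAC against 88.0 CPM in PBMC. It did not pass the rule in either pair, and its small log2 ratio of -0.08 in BM-MSC turned positive with TMM factors, median-of-ratios factors or rRNA rows left out of the total. ITGB6, an epithelial beta chain, stayed at 2.87 in BM-MSC, 1.72 in BMAC and 4.66 CPM in PBMC. The overlapping row LOC110256934 held 17, 3 and 13 counts in the same libraries, or 22.4% of the ITGB6 count summed over libraries.

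**Figure D2:**
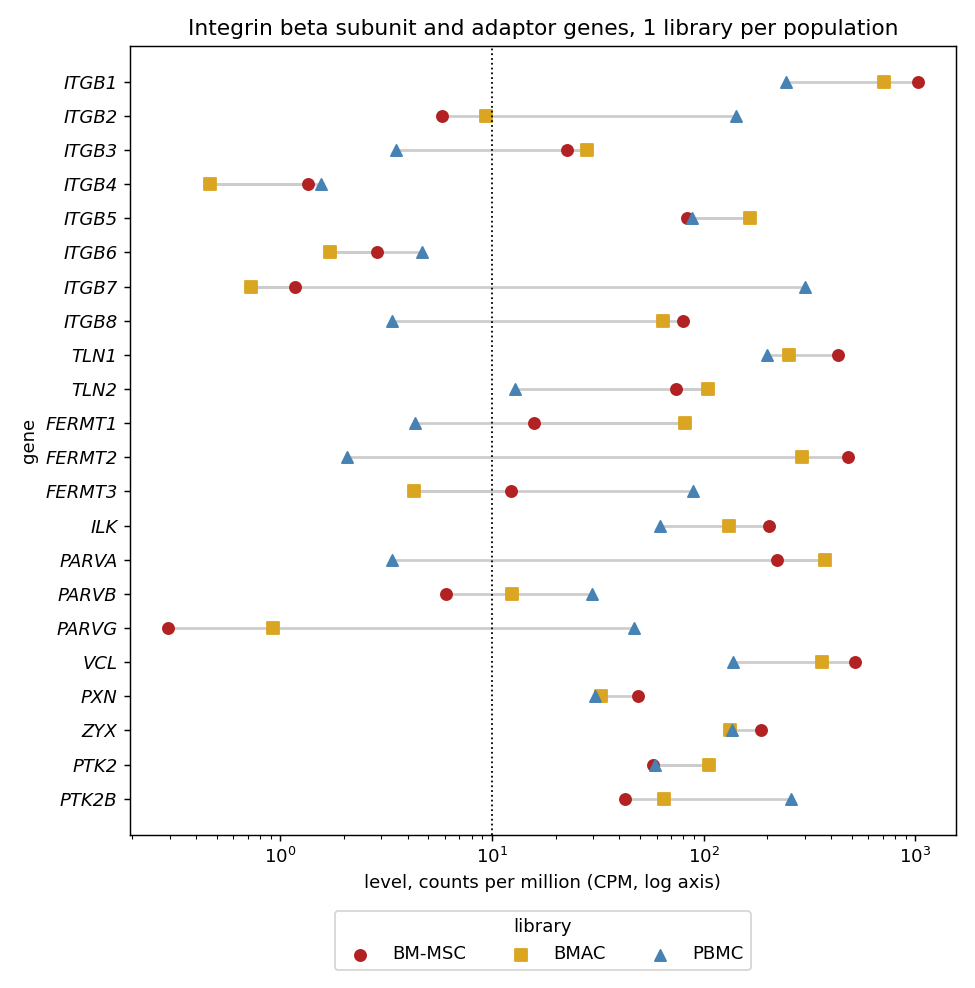
Level of each integrin beta subunit and adaptor gene in CPM on a log axis, with a circle for BM-MSC, a square for BMAC and a triangle for PBMC, each 1 library. The dotted line marks 10 CPM. FERMT2, PARVA and ITGB8 lie far to the right of PBMC in both marrow libraries, ITGB7, PARVG and FERMT3 far to the left, and ZYX and PXN each within 2-fold over the 3 libraries.

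Kindlins, which activate integrins together with talin, showed a near exchange of paralogs. FERMT2 (kindlin-2), the widely expressed form, was at 480 CPM in BM-MSC (8198 counts) and 292 CPM in BMAC (4417 counts) against 2.07 CPM in PBMC (32 counts). It was 232-fold higher in BM-MSC (164 to 339) and 141-fold higher in BMAC (99.7 to 206). FERMT3 (kindlin-3), the form of blood cells, was at 12.3 CPM in BM-MSC (210 counts) and 4.30 CPM in BMAC (65 counts) against 89.1 CPM in PBMC (1377 counts), or 7.25-fold (6.26 to 8.42) and 20.7-fold lower (16.2 to 27.0). The FERMT3 row overlaps TRPT1, which held 675 counts in BM-MSC and 397 in BMAC against 1346 in PBMC, so the FERMT3 values are uncertain. FERMT1 (kindlin-1), known from epithelia, was at 15.8 CPM in BM-MSC (270 counts) and 81.2 CPM in BMAC (1228 counts) against 4.34 CPM in PBMC (67 counts). It was 18.7-fold higher in BMAC (14.6 to 24.3) and 3.65-fold higher in BM-MSC (2.78 to 4.84), the second value being under the rule.

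As shares of all kindlin counts in a library, FERMT2 made up 94.5% in BM-MSC and 77.4% in BMAC against 2.17% in PBMC. FERMT3 made up 2.42% in BM-MSC and 1.14% in BMAC against 93.3% in PBMC, and FERMT1 3.11% in BM-MSC and 21.5% in BMAC against 4.54% in PBMC. Such shares do not depend on how a library is scaled. The ratio of FERMT2 to FERMT3 counts was 1680 times higher in BM-MSC (1145 to 2521) and 2924 times higher in BMAC (1873 to 4607) than in PBMC, with FERMT3 subject to the overlap above.

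**Figure D3:**
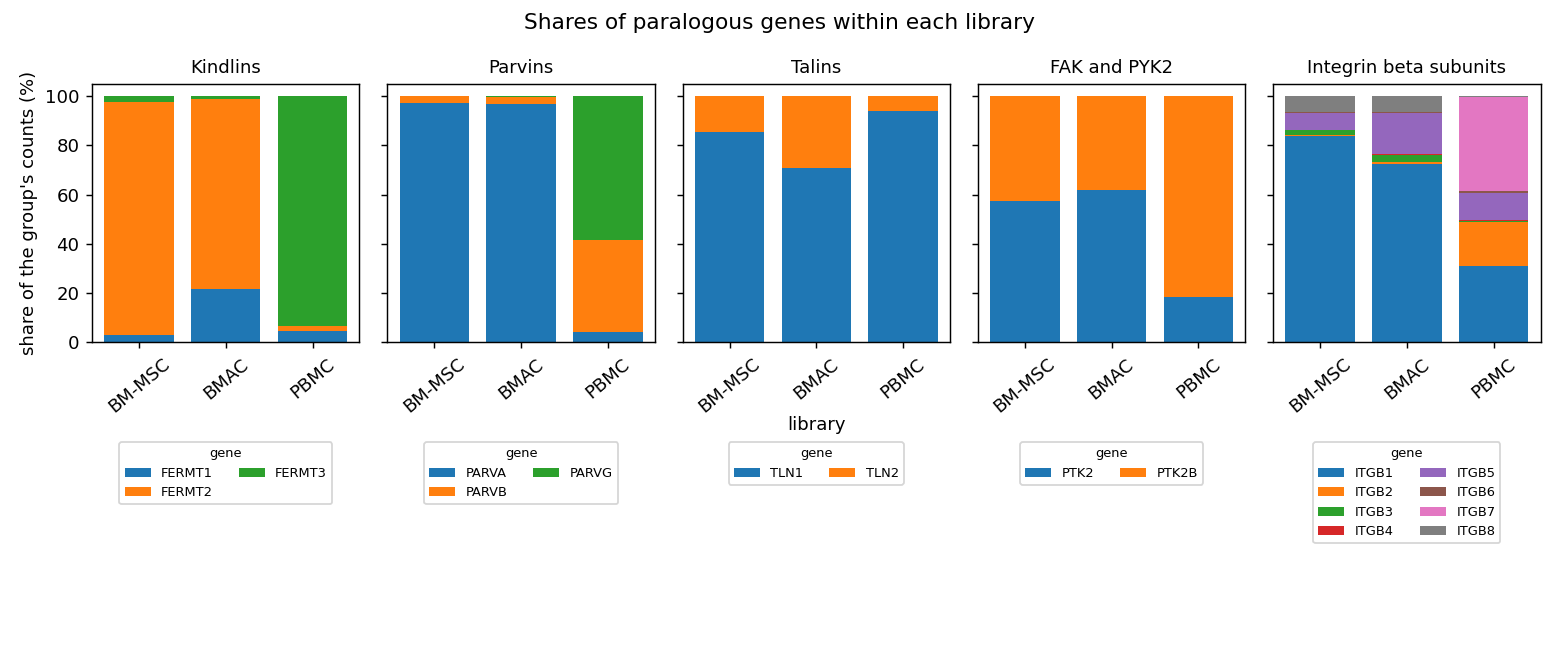
Share of each paralog in the summed counts of its group, in percent, with 1 stacked bar for each library in the order BM-MSC, BMAC and PBMC. FERMT2 holds 94.5% and 77.4% of kindlin counts in the marrow libraries against 2.17% in PBMC, PARVA 97.2% and 96.6% of parvin counts against 4.20%, and ITGB7 with ITGB2 most of the beta counts in PBMC that ITGB1 does not hold.

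The parvins, which hold ILK to actin, divided in the same manner. PARVA (alpha-parvin) was at 221 CPM in BM-MSC (3777 counts) and 376 CPM in BMAC (5688 counts) against 3.37 CPM in PBMC (52 counts), or 65.7-fold higher in BM-MSC and 112-fold higher in BMAC (85.1 to 150). PARVG (gamma-parvin), the form of blood cells, had 5 counts in BM-MSC (0.293 CPM) and 14 in BMAC (0.926 CPM) against 726 in PBMC (47.0 CPM). It was 160-fold lower in BM-MSC (68.4 to 496) and 50.8-fold lower in BMAC (30.1 to 93.3). PARVB (beta-parvin) was at 6.03 CPM in BM-MSC (103 counts) and 12.4 CPM in BMAC (188 counts) against 29.8 CPM in PBMC (460 counts). It was 4.94-fold lower in BM-MSC (3.98 to 6.17), which was under the rule with TMM factors, median-of-ratios factors, rRNA rows left out or a pseudocount of 5 CPM, and 2.40-fold lower in BMAC (2.02 to 2.85). PARVA made up 97.2% of parvin counts in BM-MSC (96.7 to 97.7) and 96.6% in BMAC (96.1 to 97.0) against 4.20% in PBMC (3.15 to 5.47), and PARVG 0.129% and 0.238% against 58.6%, with exact binomial intervals. ILK, the integrin-linked pseudokinase, was at 204 in BM-MSC and 132 in BMAC against 62.3 CPM in PBMC. Its row held 3489 counts in BM-MSC and 2002 in BMAC against 963 in PBMC, and the overlapping row TAF10 held 3402, 1930 and 968 in the same libraries, so that both may count much the same reads and the ILK level is uncertain. ILK was under the rule in both pairs and past it in BM-MSC with TMM or median-of-ratios factors.

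Talins and the adhesion kinases differed in the balance of paralogs more than in presence. TLN1, the talin of blood cells and most other cells, was at 431 in BM-MSC and 252 in BMAC against 200 CPM in PBMC, under the rule in both pairs. TLN2 was at 74.3 CPM in BM-MSC (1268 counts) and 105 CPM in BMAC (1589 counts) against 12.9 CPM in PBMC (200 counts), or 5.74-fold (4.94 to 6.69) and 8.11-fold higher. TLN2 made up 14.7% of talin counts in BM-MSC and 29.4% in BMAC against 6.08% in PBMC. The TLN1 row held 7357 counts in BM-MSC, 3813 in BMAC and 3087 in PBMC. CREB3, which overlaps it, held 791, 573 and 664 in the same libraries. That is 14.2% of the TLN1 count summed over libraries, so the TLN1 levels and the talin shares are less certain. PTK2, the focal adhesion kinase, was at 57.4 in BM-MSC and 106 in BMAC against 59.1 CPM in PBMC. Its fold of 0.970 in BM-MSC (0.886 to 1.06) had an interval around equality, and its log2 ratio of -0.04 turned positive with TMM factors, median-of-ratios factors or rRNA rows left out. PTK2B (PYK2), the related kinase abundant in blood cells, was at 42.6 CPM in BM-MSC (728 counts) and 65.1 CPM in BMAC (984 counts) against 259 CPM in PBMC (3995 counts). It was 6.06-fold lower in BM-MSC (5.60 to 6.57), and 3.98-fold lower in BMAC (3.71 to 4.27), where its log2 ratio of -1.97 lay just under the rule. PTK2 thus made up 57.4% of the counts of the kinase pair in BM-MSC and 61.9% in BMAC against 18.6% in PBMC. CHRNA2, which overlaps PTK2B, held 358 counts in BM-MSC, 132 in BMAC and 233 in PBMC. That is 12.7% of the PTK2B count summed over libraries, so the PTK2B folds and the shares of the pair are less certain.

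The remaining adaptors were shared by all populations. VCL (vinculin), which strengthens the link of talin to actin under force, was at 519 in BM-MSC and 362 in BMAC against 138 CPM in PBMC. It was 3.77-fold higher in BM-MSC (3.59 to 3.95), just under the rule and past it with TMM factors, median-of-ratios factors or rRNA rows left out. In BMAC it was 2.63-fold higher (2.50 to 2.77). The VCL row held 8851 counts in BM-MSC, 5481 in BMAC and 2127 in PBMC. The overlapping row LOC102160869 held 2448, 617 and 42 in the same libraries. That is 18.9% of the VCL count summed over libraries, and with the strand setting unknown the folds of VCL are less certain. PXN (paxillin), a scaffold of early adhesions, was at 49.0 in BM-MSC and 32.6 in BMAC against 30.8 CPM in PBMC. ZYX (zyxin), a LIM protein of mature adhesions, was at 186 in BM-MSC and 133 in BMAC against 136 CPM in PBMC. In BMAC the fold was 1.06 for PXN (0.931 to 1.20) and 0.978 for ZYX (0.920 to 1.04), and the ZYX log2 ratio of -0.03 turned positive with TMM factors, median-of-ratios factors or rRNA rows left out.

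**Figure D4:**
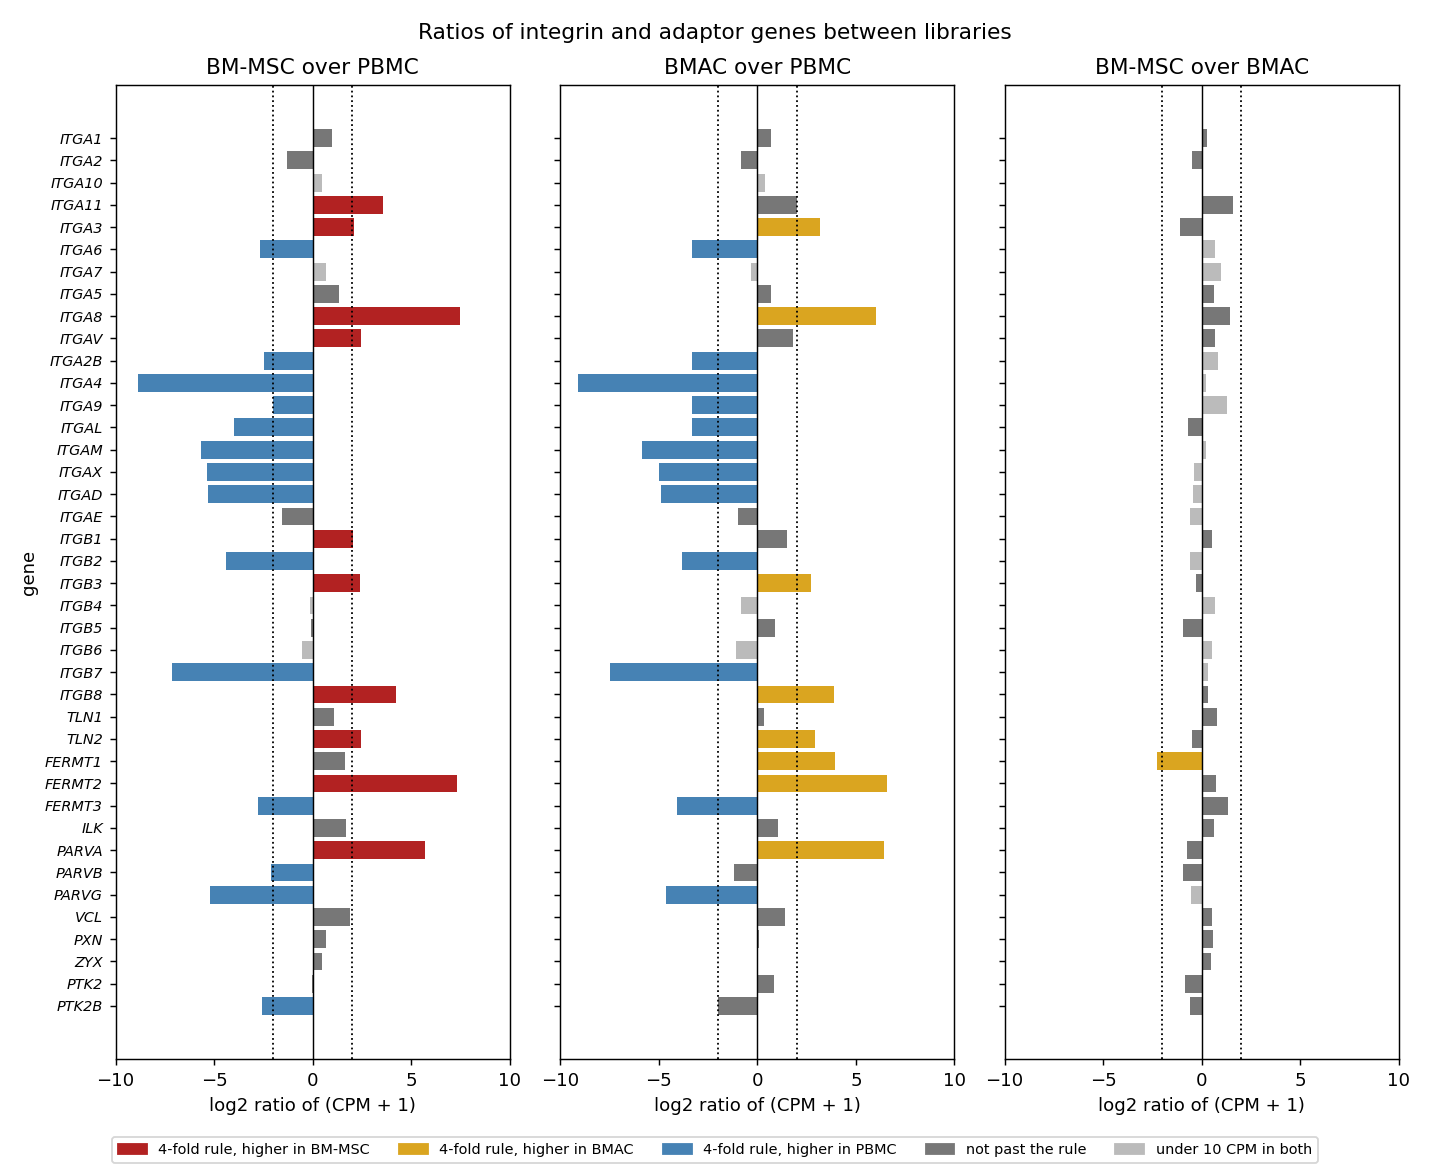
Log2 ratio of (CPM + 1) for each of the 40 genes in BM-MSC over PBMC, BMAC over PBMC and BM-MSC over BMAC, with coloured bars for genes past the 4-fold rule (dotted lines), dark grey bars for genes not past it and light grey bars for genes under 10 CPM in both libraries. The bars for ITGA4 reach -8.87 and -9.09 against PBMC, and FERMT1 alone passes the rule between the marrow libraries, at -2.29.

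Between the marrow populations the set was much alike. Of the 25 genes at or above 10 CPM in BM-MSC or BMAC, 0 passed the 4-fold rule towards BM-MSC and 1 towards BMAC, against 6.11% of all 10303 genes above the floor in either direction, 2.90% towards BM-MSC and 3.21% towards BMAC. Within 2-fold lay 20 of the 25, or 80.0%, against 80.7% of all genes, so these genes were near the rest in both respects. The median log2 ratio was 0.31 for the 25 genes and -0.09 for all genes. FERMT1 was the gene past the rule, at the levels given above and 5.13-fold lower in BM-MSC (4.50 to 5.88). As FERMT1 is known from epithelia, 9 epithelial genes chosen after its value was seen were read beside it. The 8 with a row summed to 12.7 in BM-MSC and 6.02 in BMAC, against 73.5 CPM in PBMC, and 0 of them reached 10 CPM in either marrow library. Most of the PBMC sum came from GRHL2 (55.5 CPM), followed by CDH1 (13.4 CPM). KRT19 was at 0 in all libraries. From BM-MSC to BMAC, counts rose from 0 to 1 for KRT5, 0 to 6 for EPCAM and 1 to 6 for CLDN7. The reverse order, opposite to FERMT1, held for CLDN4 (7.15 against 0.926 CPM) and CDH1 (2.28 against 1.19 CPM). It also held, by little, for ESRP1 (1.23 against 1.12 CPM) and GRHL2 (1.99 against 1.92 CPM). The part of epithelial cells in the FERMT1 value was not tested.

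Smaller differences between the marrow libraries ran both ways. ITGA11 was 3.08-fold higher in BM-MSC (2.64 to 3.62), ITGA8 2.74-fold higher (2.63 to 2.85) and FERMT3, uncertain through TRPT1, 2.86-fold higher (2.16 to 3.84). In the other direction, ITGA3 was 2.17-fold lower in BM-MSC (1.92 to 2.45), PARVB 2.06-fold (1.61 to 2.65) and ITGB5 1.98-fold (1.85 to 2.11). The ITGB5 share of beta chain counts was 6.80% in BM-MSC (6.46 to 7.15) and 16.9% in BMAC (16.3 to 17.5). ITGA8 made up 55.7% in BM-MSC (55.0 to 56.4) and 37.9% in BMAC (36.9 to 38.9) of the counts of the alpha chains that pair with ITGB1. The 4 smooth muscle markers were also higher in BM-MSC, with a sum of 7896 CPM against 560 CPM in BMAC and ACTA2 at 6566 against 152 CPM. Their part in the ITGA8 and ITGA11 values was not tested.

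The wider adhesion machinery was described with a list of 62 other genes of integrin activation and focal adhesions, of which 61 had a row and FYB1 was not analysed here. Among the 59 at or above the floor, 25 passed the rule towards BM-MSC and 14 towards PBMC, with a median log2 ratio of 0.84. In the BMAC pair, 21 of 58 passed towards BMAC and 11 towards PBMC, with a median of 1.03. The floor was reached through 1 library alone by 18 (BM-MSC) and 7 (PBMC) genes in one pair and by 17 (BMAC) and 6 (PBMC) in the other. The shares past the rule, 66.1% and 55.2%, stand beside the 30.0% and 26.8% of all genes given above. TGFB1I1 (Hic-5), a relative of paxillin, was at 220 in BM-MSC and 123 in BMAC against 0.388 CPM in PBMC. CAV1, the caveolae protein, was at 239 in BM-MSC and 279 in BMAC against 0.518 CPM in PBMC. Both were thus near 0 in blood and abundant in either marrow library. The tetraspanin CD151, which associates with laminin-binding integrins, was at 319 in BM-MSC and 305 in BMAC against 2.01 CPM in PBMC. LIMS2 (PINCH-2), a partner of ILK, was at 159 in BM-MSC and 55.6 in BMAC against 0.842 CPM in PBMC. SDC4, a proteoglycan that acts with integrins on fibronectin, was at 51.9 in BM-MSC and 197 in BMAC against 0.583 CPM in PBMC.

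The genes of this list with the widest ratios towards blood include adaptors known from leukocytes. SKAP1, an adaptor of T cell adhesion, was at 3.10 in BM-MSC and 2.84 in BMAC against 1187 CPM in PBMC. APBB1IP (RIAM), which brings talin to integrins through RAP1, was at 41.3 in BM-MSC and 12.6 in BMAC against 934 CPM in PBMC. LPXN (leupaxin), the paxillin relative of blood cells, was at 1.52 in BM-MSC and 0.926 in BMAC against 62.2 CPM in PBMC. It was thus higher in blood, while TGFB1I1 was higher in both marrow libraries. ELMO1, which acts with DOCK proteins on RAC, was at 62.2 in BM-MSC and 356 in BMAC against 1608 CPM in PBMC. Between the marrow libraries, 1 of 54 list genes passed the rule towards BM-MSC and 1, ELMO1, towards BMAC, or 3.70% in either direction, beside 6.11% of all genes.

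**Figure D5:**
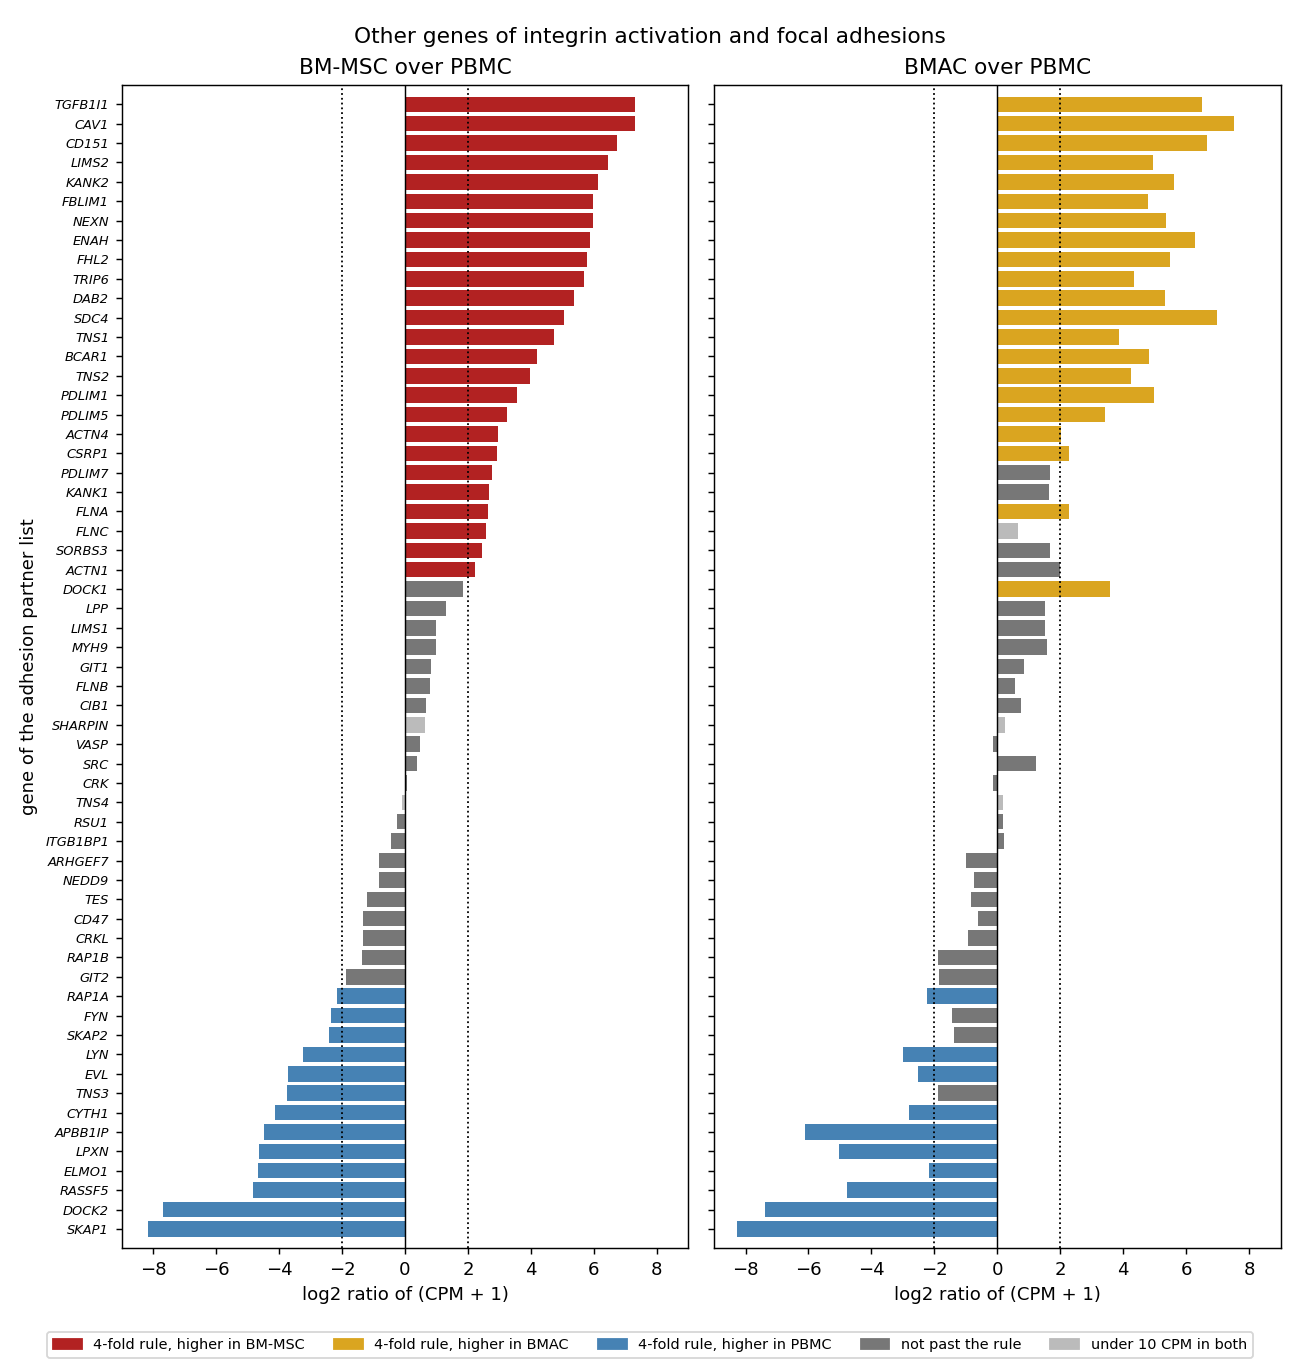
Log2 ratio of (CPM + 1) for other genes of integrin activation and focal adhesions, in BM-MSC over PBMC and in BMAC over PBMC, with genes ordered by the BM-MSC panel. Coloured bars are past the 4-fold rule (dotted lines), and light grey bars are genes under 10 CPM in both libraries. TGFB1I1 and CAV1 lead the marrow side at 7.31 and 7.30 in BM-MSC, and SKAP1 leads the PBMC side at -8.18.

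Ligands of these receptors were read from a list of 31 genes, 30 with a row, and the genes named here were picked after their values were seen. Among 24 at or above the floor, 18 passed the rule towards BM-MSC and 4 towards PBMC, beside 14.3% and 15.7% of all genes above the floor. In the BMAC pair 18 and 4 of 24 passed towards BMAC and PBMC, beside 14.0% and 12.8% of all genes. Most of these reached the floor through a marrow library alone, 15 in each pair. FN1 (fibronectin), the ligand of the ITGA5 and ITGA4 receptors, was at 3622 in BM-MSC and 11465 in BMAC against 41.0 CPM in PBMC. NPNT (nephronectin), the ligand of the ITGA8 receptor, was at 32.0 in BM-MSC and 27.2 in BMAC against 1.42 CPM in PBMC. VCAM1, the counter-receptor for ITGA4 with ITGB1, was at 1.05 in BM-MSC and 140 in BMAC against 0.259 CPM in PBMC. VCAM1 was thus high in the BMAC library, while ITGA4 was high in PBMC. ICAM1, a counter-receptor for the ITGB2 integrins, was at 171 in BM-MSC and 179 in BMAC against 24.8 CPM in PBMC, whereas ICAM3, found on leukocytes, was at 3.46 in BM-MSC and 2.31 in BMAC against 60.5 CPM in PBMC. ICAM1 was thus higher in the marrow libraries and ICAM3 in blood. TGFB1, whose latent form is bound by ITGAV with ITGB8, was at 4.28 in BM-MSC and 14.0 in BMAC against 143 CPM in PBMC. Between the marrow libraries 1 of 22 ligand genes passed the rule towards BM-MSC and 3 towards BMAC, beside 2.90% and 3.21% of all genes. The 1 was TNXB, which overlaps ATF6B and CYP21A2 and is uncertain, and the 3 were VCAM1, SPP1 (12.2 CPM in BM-MSC against 178 CPM in BMAC) and TNC (151 CPM in BM-MSC against 761 CPM in BMAC).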

How the data were processed

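The deposited files hold raw counts per gene symbol from the authors, 1 library per population. The count column of the BM-MSC library is headed pMSC, per the file headers, and was assigned by the sample record that holds the file. Per the labels' protocols, libraries were made with the Lexogen QuantSeq kit from 500 ng of RNA taken up in Trizol. The kit counts reads near transcript 3' ends. Bowtie2 and bedtools are named, per the submitters' processing notes. Not given in the sources used here are the genome build, annotation, strand setting and handling of multi-mapped reads. Counts depend on how well annotated 3' ends match transcripts.

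Rows sharing a symbol were summed (81 symbols, 0 of them among the 40 genes). Counts were divided by the library total to give CPM, and ratios used a pseudocount of 1 CPM. A gene overlapping another row that held at least 25% of its summed count was named as uncertain, using the RefSeq table of Sscrofa11.1 for neighbours only. The overlaps of VCL, ITGA1, TLN1, PTK2B and ITGB6, which lie under that limit, are given with their counts. Smaller ones of other members are not given. No test between populations was run. Alternatives changed the pseudocount, the 10 CPM floor, the scaling (TMM from edgeR 4.0.16, median-of-ratios from DESeq2 1.42.0), the rRNA rows in the total and the overlapping genes. Python 3.11.15 and scipy 1.17.1 were used, and the computation was tested on simulated data. The genes and lists were chosen with earlier results of these data known. All 40 genes are named. Of the 62 partners, up to 4 past the rule in each direction of a pair, with the largest ratios, were named, leaving out overlapping genes. Some genes that this rule names are not reported here. Protein and promoter sequences were not analysed here.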

Additional observations from a re-analysis of the deposited data

How the results depend on the processing

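No paired analysis was possible because there was 1 library per population and the labels carry no replicate numbers. For the same reason no library could be left out. With a floor of 50 CPM, which by construction tests fewer genes, the integrin and adaptor genes higher in PBMC numbered 8 instead of 14 against BM-MSC and 7 instead of 12 against BMAC. Between the marrow libraries, partner genes higher in BM-MSC numbered 0 with a pseudocount of 5 CPM or a floor of 50 CPM and 2 with median-of-ratios factors or without rRNA rows, and those higher in BMAC numbered 2 with a pseudocount of 0.5 CPM, instead of 1 in each case. The cause was not tested. Over the 9 alternatives, integrin and adaptor genes higher in BM-MSC than in PBMC ranged from 7 to 12 and those higher in BMAC than in PBMC from 7 to 10. The median log2 ratio ranged from 0.20 to 0.99 in BM-MSC against PBMC, from 0.02 to 0.83 in BMAC against PBMC and from 0.30 to 0.40 in BM-MSC against BMAC. None of the integrin and adaptor genes past the rule turned its direction under these 9 alternatives, and single partner genes were not followed. FERMT1 passed the rule between the marrow libraries in all 9. Depth limits the low members, since 3 counts correspond to 0.176 (BM-MSC), 0.198 (BMAC) and 0.194 CPM (PBMC), so that folds against ITGAX, PARVG or ITGA4 in marrow cells have wide intervals.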
